A study of Mus musculus with 31 samples.

Results

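The replication-dependent histone genes of mouse were followed in leukocytes sorted from irradiated mammary tumours. Members were every row of the count tables whose symbol starts with Hist1h, Hist2h, Hist3h or Hist4h, and those with at least 10 counts in at least 4 of the 31 libraries were kept. Of 38406 gene symbols, 70 matched and 31 were kept: 5 of 6 H1 genes, 10 of 20 H2a, 7 of 19 H2b, 4 of 12 H3 and 5 of 13 H4. The kept genes held 33257 of 139795612 gene counts (0.0238%), or 524 to 2048 counts in a library (median 1000). The other 39 symbols held 1489 counts together, from 0 to 131 each, and 3 of them had no count. Hist2h3c2 and Hist1h4c were just inside the threshold, with 143 and 167 counts and 4 libraries of at least 10 counts, and Hist1h3h, with 131 counts and 3 such libraries, was just outside.

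AT3-OVA cells, a triple negative mammary tumour line that carries ovalbumin, were placed in the mammary fat pad of female wildtype C57BL/6 mice. Tumours received local radiotherapy as 3 fractions of 4 Gy (3x4Gy) or as 1 dose of 20 Gy (1x20Gy), and mice that were anaesthetized without irradiation served as mocks (3x0Gy and 1x0Gy). CD45.2+ cells, the leukocytes, were sorted from the tumours on day 5 or day 13 after the last dose, and their RNA was sequenced. The groups held 6 libraries of 3x4Gy, 4 of 3x0Gy, 6 of 1x20Gy and 4 of 1x0Gy on day 5, and 7 of 1x20Gy and 4 of 1x0Gy on day 13. The labels do not say whether each library came from a separate tumour, so p-values measure the spread between libraries.

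Replication-dependent histone genes are transcribed in S phase, when newly copied DNA is wrapped on new nucleosomes. H2A, H2B, H3 and H4 form the nucleosome core, and H1 is the linker histone that binds where DNA enters and leaves it. Their messages lack introns and, in dividing cells, end in a short stem-loop that the protein SLBP binds, in place of a poly(A) tail. NPAT and FLASH (the product of Casp8ap2) act at the nuclear bodies where these genes are transcribed and their ends are cut. Some of these genes can also give longer polyadenylated messages in cells that have left the cycle. How RNA was selected for the libraries (poly(A) capture or removal of ribosomal RNA) is not given in the sources used here, so a level below is a level of whichever message form was captured.

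The ends of the messages are shown first because the called genes differ in them. A stem of 6 base pairs around a loop of 4 bases was searched on the transcript strand in the first 150 bases after the stop codon of each GENCODE transcript (build GRCm38). It had to open with GG and close with CC, the loop had to begin with TT, and at least 5 of the 6 pairs had to match. It was present in 24 of the 31 genes and absent in Hist1h2bc and Hist2h2be. The annotated transcripts of Hist1h1a, Hist1h1b, Hist1h2ai, Hist1h2an and Hist2h2bb end too soon to be searched. Of 17522 other genes searched, 95 held it (0.542%), a number that includes the histone symbols that were not kept. Capitals below mark the stem-loop, and the flanks lie in the 3' untranslated region.
Hist1h1c: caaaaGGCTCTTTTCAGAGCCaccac
Hist1h1e: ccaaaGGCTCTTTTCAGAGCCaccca
Hist3h2a: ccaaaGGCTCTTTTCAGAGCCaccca
Hist1h2ae: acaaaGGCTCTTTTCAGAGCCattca
Hist1h3d: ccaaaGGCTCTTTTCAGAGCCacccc
Hist1h4d: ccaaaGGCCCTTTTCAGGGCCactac
Hist1h4h: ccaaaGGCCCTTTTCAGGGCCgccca
Hist1h4b: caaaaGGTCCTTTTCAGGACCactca
The form seen in Hist1h1c was shared by 16 genes, and that of Hist1h4d and Hist1h4h by 3, all of class H4. The stem-loop began 21 to 46 bases after the stop codon (median 32, n = 24). The annotated transcript ran on for 3 to 4884 bases past it, by more than 150 bases in 13 genes and by at most 80 in 11. A poly(A) signal (AATAAA or ATTAAA) was found within the last 50 bases of the transcripts of 8 genes: Hist1h1c, Hist1h2ae, Hist1h2be, Hist1h4h, Hist1h4i, Hist2h2be, Hist3h2a and Hist3h2ba. Hist1h1c ran 840 bases past its stem-loop to such a signal, Hist3h2a 1643 and Hist1h4h 46. Hist1h2bc had a spliced model with 742 bases after the stop codon, no stem-loop and no such signal.

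**Figure D1:**
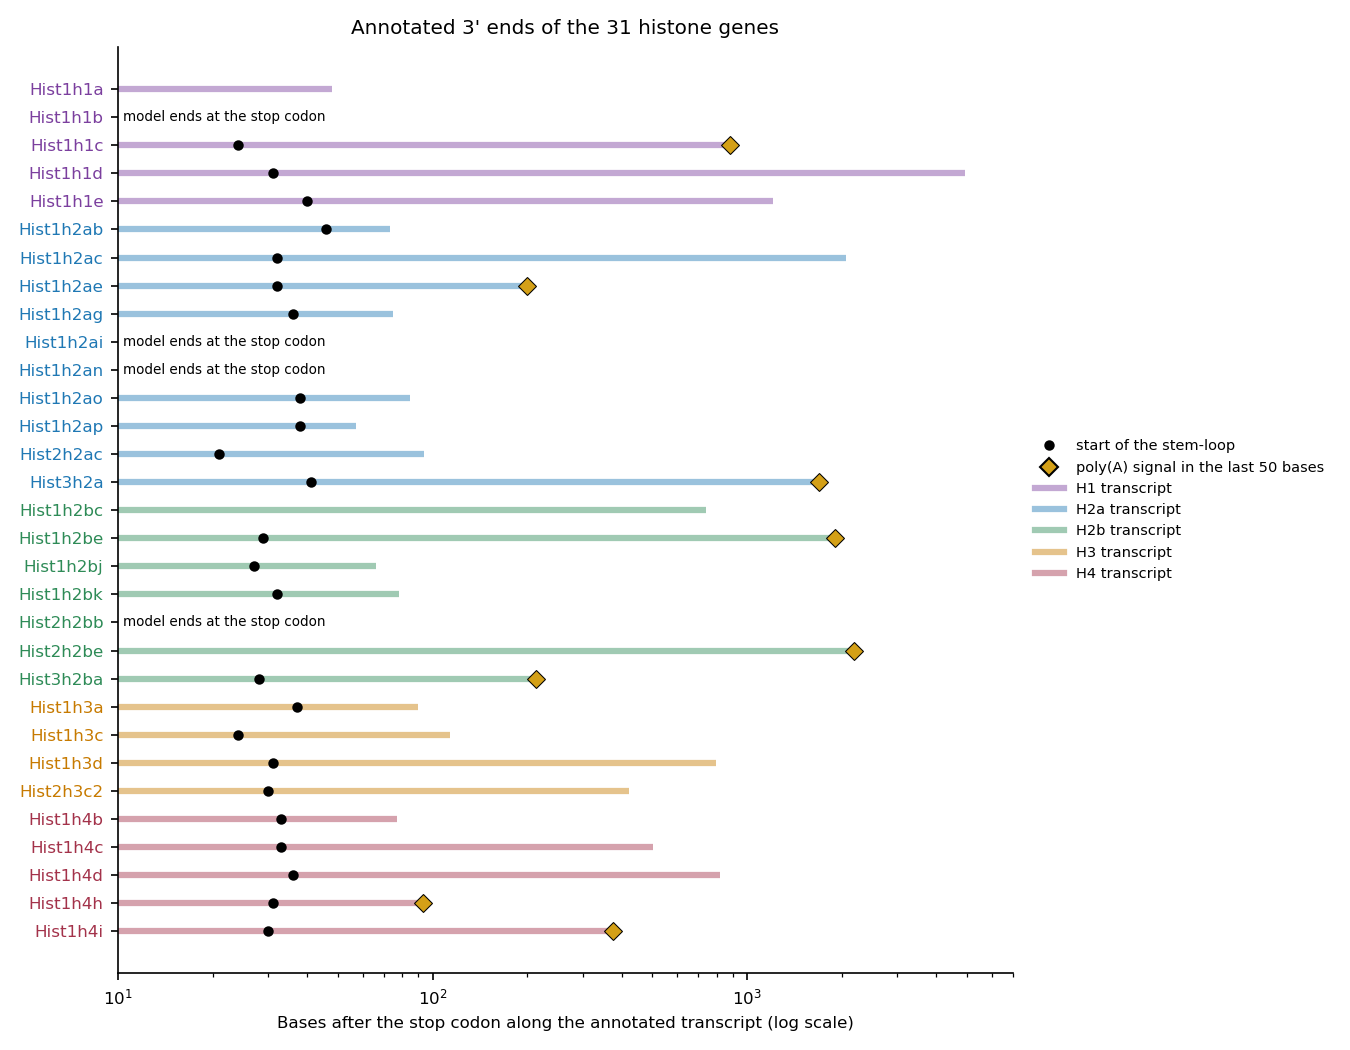
Length of the annotated transcript after the stop codon (x axis, bases, log scale) for the 31 kept histone genes, coloured by class, with the start of the stem-loop (black points) and a poly(A) signal in the last 50 bases (diamonds). The stem-loops sit in a narrow band 21 to 46 bases after the stop codon, while transcript ends reach up to 4884 bases past them.

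Of the 31 genes, 25 lie on chromosome 13 within 2048 kb, 4 on chromosome 3 within 49.8 kb and 2 on chromosome 11 within 7.91 kb (GRCm38). Hist1h1b (ENSMUSG00000058773.2, chr13:21779883-21780625, minus strand) and Hist1h1c (ENSMUSG00000036181.2, chr13:23738808-23740367, plus strand) encode linker histones. Hist1h2bc (ENSMUSG00000018102.5, chr13:23684199-23692908, plus strand) and Hist1h4h (ENSMUSG00000060981.7, chr13:23531050-23531519, plus strand) encode core histones. Promoters, from 250 bases before to 50 after the start, were taken from RefSeq (GRCm38.p6) for 28 of the 31 genes. They are printed for Hist1h1b, Hist1h1c and Hist1h4h, which were called in different directions. Capitals mark matches on either strand to any of 4 patterns. They were the general promoter element CCAAT, the start-site element TATAAA, the repeat AAACACA known from promoters of H1 genes, and the octamer ATTTGCAT known from those of H2B genes.
Hist1h1b, chr13:21780576-21780875, minus strand: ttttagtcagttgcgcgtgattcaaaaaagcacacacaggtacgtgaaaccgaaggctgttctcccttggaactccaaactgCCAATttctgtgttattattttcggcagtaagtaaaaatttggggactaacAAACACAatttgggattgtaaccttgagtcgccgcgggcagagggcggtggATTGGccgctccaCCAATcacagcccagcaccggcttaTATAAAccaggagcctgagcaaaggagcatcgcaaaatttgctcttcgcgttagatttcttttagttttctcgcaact
Hist1h1c, chr13:23738557-23738856, plus strand: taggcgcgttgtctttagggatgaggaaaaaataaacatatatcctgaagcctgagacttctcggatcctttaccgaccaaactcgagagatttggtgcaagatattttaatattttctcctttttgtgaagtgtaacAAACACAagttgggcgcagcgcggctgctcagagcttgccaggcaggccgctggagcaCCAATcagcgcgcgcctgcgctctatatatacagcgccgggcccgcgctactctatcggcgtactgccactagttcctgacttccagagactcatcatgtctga
Hist1h4h, chr13:23530794-23531093, plus strand: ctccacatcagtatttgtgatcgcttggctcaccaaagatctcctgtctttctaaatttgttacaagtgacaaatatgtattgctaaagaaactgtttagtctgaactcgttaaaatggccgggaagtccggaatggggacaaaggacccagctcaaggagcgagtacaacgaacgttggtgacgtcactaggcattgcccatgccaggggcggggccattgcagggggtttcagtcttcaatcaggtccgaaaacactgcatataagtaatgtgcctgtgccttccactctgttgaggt
CCAAT was in 25 of the 28 promoters (89.3%) against 37.9% of 27025 RefSeq promoters of the same length. It was in all 23 promoters of classes H1, H2a, H2b and H3 and in 2 of 5 of class H4. TATAAA was in 14 of 28 (50%, against 14.2%). AAACACA was in 5 (17.9%, against 7.14%), of which 4 were H1 genes. ATTTGCAT was in 7 (25.0%, against 1.75%), of which 5 were H2a and 2 H2b genes. The Hist1h4h window held none of the 4 patterns.

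Libraries held 2641229 to 7541144 gene counts, so that a level of 1 CPM (counts scaled to a common library size) stood for 2.46 to 7.85 counts. Reads aligned to several places, listed on a line apart from the gene counts, came to 0.293 to 0.431 per gene count. They were left out of the share of reads outside genes. Of reads in genes, outside them or ambiguous between them, 5.65 to 32.0% lay outside annotated genes. The lowest was 3x0Gy library 2, which stood apart; in it the macrophage markers summed to 18798 CPM, against 3971 to 10324 CPM in the other 30. The gene with the clone name RP23-81C12.3 took 0.148 to 31.5% of gene counts and was highest in the day 13 1x20Gy libraries (19.2 to 31.5%, against 2.15 to 15.01% in their mocks). The 8 pan-leukocyte markers summed to 4854 to 7155 CPM in the 31 libraries, and keratins and other epithelial markers were also counted in each, at 161 to 2380 CPM. In bulk RNA, fewer cells of a type and less RNA per cell cannot be told apart. CPM are scaled by the trimmed mean of M-values (TMM) within a day, and the 2 days also carry different experiment codes in the labels, so that day and experiment cannot be told apart.

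Per kilobase of annotated exon, the mean of the 6 group means was highest for Hist1h1c (32.8 CPM per kb) and Hist3h2a (28.2 CPM per kb). Hist1h2ap (16.9), Hist1h1b (15.3), Hist1h2an (14.5), Hist1h2bc (14.3), Hist1h1e (13.1), Hist1h2ao (11.9) and Hist1h2ae (9.87 CPM per kb) followed. Each gene's range of group means overlapped that of its neighbours in the order of 31 (21.0 to 51.7 CPM per kb for Hist1h1c and 21.3 to 35.4 for Hist3h2a). These ranges run over the 6 groups, and neighbours were not compared within a group. The lowest were Hist1h2ac (0.581), Hist1h1d (0.405) and Hist1h2be (0.288 CPM per kb), whose annotated exons are long (2482, 7425 and 4446 bases). Near-identical copies limit these levels. Of all 50-base words in a gene, 6.5% were its own in Hist1h2ao, 6.9% in Hist1h2ap, 9.9% in Hist1h2ai and 14.2% in Hist1h2an, against 100.0% in Hist1h1b, 91.5% in Hist1h1c, 69.9% in Hist1h2bc, 68.5% in Hist3h2a and 54.2% in Hist1h4h. Exons of Hist1h1e and Hist1h2be overlap each other and Gm11398 on the same strand. Those of Hist1h2ac overlap Gm24991 and those of Hist2h2bb overlap Gm42743 on the same strand. Exons of Hist3h2a overlap Trim17 on the same strand and Gm44313 on the other. The other 9 H2a genes, Hist1h4b and Hist2h2bb overlap antisense gene models. Whether strand was used in counting is not given in the sources used here, so such pairs cannot be told apart.

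On day 5 after 3x4Gy, 2 H1 genes moved in opposite directions. Hist1h1b rose 4.04-fold, while Hist1h1c fell 2.04-fold, and the H2B gene Hist1h2bc and the H4 gene Hist1h4h fell 2.71-fold and 2.60-fold. These were 4 of 30 members tested, or 1 higher and 3 lower, beside 5.2% higher and 7.09% lower of all 12021 genes. The other 26 did not pass the test. Log2 fold changes were above 0 in 21 members and below 0 in 9, with a median of 0.55 against -0.00 over all genes. With other scalings of the libraries 20 or 21 were above 0.

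Hist1h1b encodes a linker histone that RefSeq names H1f5. It was at 44.4, 8.37, 8.29, 10.9, 4.13 and 31.4 CPM in the 3x4Gy libraries and at 3.49, 0, 5.82 and 6.67 CPM in the 3x0Gy libraries. Libraries 1 and 6 of 3x4Gy were far above the rest, and library 5 lay within the range of the mocks. The log2 fold change was 2.01 (SE 0.63, adjusted p = 0.0401, edgeR quasi-likelihood test with Benjamini-Hochberg adjustment over all genes), on means of 17.9 ± 16.2 (SD, n = 6) and 3.99 ± 2.98 CPM (SD, n = 4). The call was lost without 3x4Gy library 1 or 6, or without any 1 of the 4 mock libraries (edgeR adjusted p from 0.0507 to 0.1). The other H1 genes apart from Hist1h1c had log2 fold changes of 1.65 for Hist1h1a (adjusted p = 0.13), 1.15 for Hist1h1e (0.175) and 0.86 for Hist1h1d (0.335) in the same edgeR fit.

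Hist1h1c encodes the linker histone that was counted most in these libraries. It stood at 53.9, 44.0, 38.0, 31.9, 34.8 and 34.5 CPM after 3x4Gy and at 70.4, 101.5, 65.9 and 85.0 CPM in the mocks. Every irradiated library was below every mock library. The log2 fold change was -1.03 (SE 0.18, edgeR adjusted p = 0.000559), on means of 39.5 ± 8.19 and 80.7 ± 16.1 CPM.

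Hist1h2bc was at 10.03, 14.8, 12.6, 8.56, 11.5 and 12.4 CPM after 3x4Gy and at 34.9, 45.7, 18.7 and 29.8 CPM in the mocks. These ranges did not overlap either, and the mocks spread more than the irradiated libraries. The log2 fold change was -1.44 (SE 0.23, edgeR adjusted p = 0.000237), on means of 11.7 ± 2.19 and 32.2 ± 11.2 CPM. Hist1h4h was low in every library, at 1.25, 1.58, 1.55, 0.591, 0.917 and 0.654 CPM after 3x4Gy (33 counts in all) and 3.83, 2.73, 2.40 and 3.10 CPM in the mocks (53 counts). The groups did not overlap, and the log2 fold change was -1.38 (SE 0.45, edgeR adjusted p = 0.0473). The Hist1h4h call was lost without any 1 of 8 of the 10 libraries, and kept without 3x4Gy library 2 or 3. Hist1h2be, an H2B gene with a long transcript, was the fourth member whose groups did not overlap, with all 3x4Gy libraries lower (log2 fold change -1.27, edgeR adjusted p = 0.0938). Such separation was seen in 5.67% of all genes in the lower direction and in 3.91% in the higher, where no member showed it.

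By class, the median log2 fold change was 1.15 for H1 (4 of 5 above 0), 0.91 for H2a (8 of 10), -0.26 for H2b (3 of 7), 0.08 for H3 (2 of 3) and 0.17 for H4 (4 of 5). No H2a gene passed the test, and the farthest from 0 were Hist1h2an at 1.97 (edgeR adjusted p = 0.0713), Hist1h2ab at 1.48 (0.0709) and Hist1h2ae at 1.43 (0.0788). Hist1h2ab stood at 10.3, 2.84, 1.55, 4.13, 0.917 and 4.36 CPM against 1.05, 1.02, 1.54 and 1.71 CPM. Hist3h2a, the H2A gene counted most, was at 63.2 ± 11.9 CPM against 75.9 ± 23.5 CPM (log2 fold change -0.26, edgeR adjusted p = 0.335). Of the H3 genes, Hist1h3c had a log2 fold change of 1.09 (edgeR adjusted p = 0.0626) and Hist1h3d one of -0.91 (0.145). Hist1h4d, the H4 gene with the highest mean over the 31 libraries, had one of 0.79 (0.245), and Hist1h4i, which was counted more on day 5, one of 0.10 (0.833). At an unadjusted p below 0.05, 9 members were higher and 5 lower, against 1643 and 1759 of all genes.

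Other readings moved with these calls. The 6 fibroblast markers tested were all called lower after 3x4Gy, and their summed level was 16.2 to 49.4 CPM against 92.3 to 209.5 CPM in the mocks. Of 12 epithelial and tumour cell markers, 3 were called lower, at a summed 180 to 821 CPM against 514 to 1167 CPM, and both erythroid markers tested were called lower. The mean log2 CPM of the epithelial and fibroblast markers tested on both days, pooled, was then added as a single covariate. Epithelial and fibroblast levels were thus not adjusted for separately. With it Hist1h2bc remained called, and the log2 fold change of Hist1h1b was 2.13 (edgeR adjusted p = 0.127). The log2 fold change of Hist1h1c was -0.67 (edgeR adjusted p = 0.0563), and that of Hist1h4h was -0.47 (0.617). Reads outside genes were 21.1 to 28.1% after 3x4Gy and 5.65 to 21.5% in the mocks. With that share as covariate, Hist1h1c and Hist1h2bc were called and Hist1h1b (log2 fold change 1.65, edgeR adjusted p = 0.208) and Hist1h4h (-1.22, 0.236) were not. Without 3x0Gy library 2, which stood apart, the log2 fold change was 1.69 for Hist1h1b (edgeR adjusted p = 0.1), -0.90 for Hist1h1c (0.00302), -1.22 for Hist1h2bc (0.000998) and -1.41 for Hist1h4h (0.0755).

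**Figure D2:**
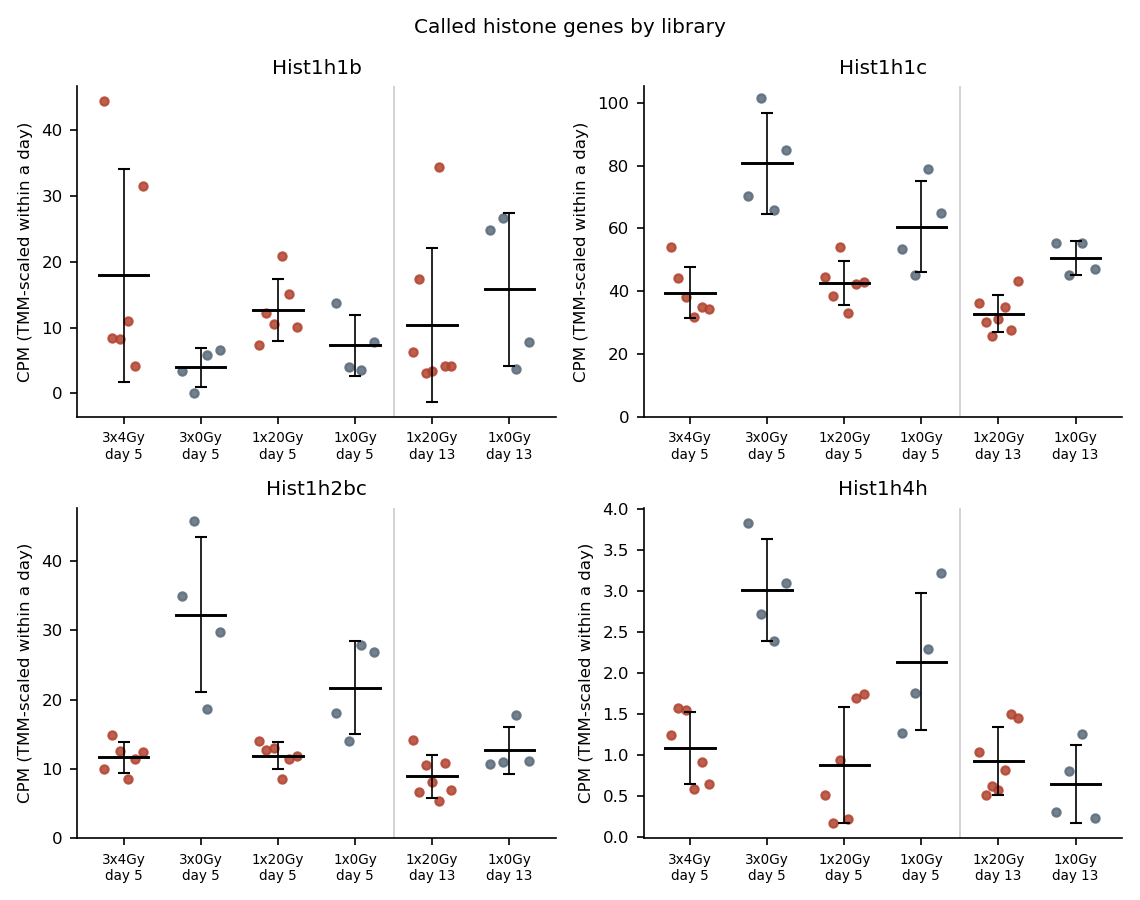
Levels of the 4 called histone genes in each of the 31 libraries (CPM, TMM-scaled within a day; red, irradiated; grey, mock), with group mean and SD; n = 6, 4, 6, 4, 7 and 4 from left to right, and the vertical line parts day 5 from day 13. Hist1h1c and Hist1h2bc of the 3x4Gy libraries lie below all 3x0Gy libraries, while Hist1h1b spreads from 4.13 to 44.4 CPM within 3x4Gy.

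On day 5 after 1x20Gy, Hist1h2bc was the 1 member that passed the test, and it fell 1.82-fold. Of all 12021 genes, 3.67% were called higher and 4.88% lower. The other 29 of 30 members tested did not pass, 21 of 30 had a log2 fold change above 0 (20 or 21 with other scalings), and the median was 0.44 against 0.02 over all genes.

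Hist1h2bc was at 14.1, 12.7, 13.0, 8.48, 11.5 and 11.8 CPM after 1x20Gy and at 18.1, 14.1, 27.8 and 26.9 CPM in the 1x0Gy mocks. Mock library 2 lay at the level of the highest irradiated library, and the other 3 were above all of them. The log2 fold change was -0.86 (SE 0.22, edgeR adjusted p = 0.0178), on means of 11.9 ± 1.92 (SD, n = 6) and 21.7 ± 6.72 CPM (SD, n = 4). Without mock library 3 or 4 the edgeR adjusted p was 0.0926 or 0.0875, and with the replicate block it was 0.0512. With the pooled epithelial and fibroblast mean or the share of reads outside genes as covariate, the log2 fold change was -0.61 (0.317) or -0.54 (0.172). Of the 12 epithelial markers 6 were called lower here (summed level 161 to 545 CPM against 449 to 657), and of the 6 fibroblast markers 2 (12.9 to 67.8 CPM against 55.9 to 199 CPM).

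The linker histone Hist1h1c was at 44.6, 38.5, 54.1, 33.0, 42.3 and 43.0 CPM after 1x20Gy and at 53.5, 45.2, 78.8 and 64.8 CPM in the mocks. The groups overlapped in part, and the log2 fold change of -0.51 did not pass (edgeR adjusted p = 0.0766). Hist1h1b was at 12.7 ± 4.76 CPM against 7.28 ± 4.67 CPM, with a log2 fold change of 0.78 (edgeR adjusted p = 0.461). The H2B genes Hist1h2bj and Hist1h2bk had log2 fold changes of 1.51 and 1.48 (edgeR adjusted p = 0.0511 and 0.0750). Hist1h2bj stood at 1.30, 3.13, 3.57, 1.83, 1.91 and 1.97 CPM against 1.02, 1.44, 0.491 and 0.179 CPM, and only the first irradiated library fell among the mocks. Hist1h4h had a log2 fold change of -1.24 (0.102), on 25 counts against 53. Class medians were 0.78 for H1, 0.44 for H2a, -0.01 for H2b, 0.24 for H3 and 0.17 for H4. No member had groups that did not overlap, against 5.44% of all genes in the higher and 6.07% in the lower direction.

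On day 13 after 1x20Gy, Hist1h1c was the 1 member that passed the test, falling 1.55-fold. Only 14 of the 31 members had enough counts to be tested, and of 11071 genes 4.22% were called higher and 3.83% lower. Log2 fold changes were above 0 in 5 and below 0 in 9 members, with a median of -0.33 against 0.01 over all genes. Scaling by library size alone gave 3 above and 11 below, with the median of all genes at -0.23.

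Hist1h1c ranged from 25.8 to 43.1 CPM (median 31.2) in the 7 irradiated libraries and stood at 55.5, 45.0, 55.2 and 47.1 CPM in the mocks. The groups did not overlap, as in 3.97% of all genes in that direction (3.31% in the higher, where no member showed it). The log2 fold change was -0.63 (SE 0.15, edgeR adjusted p = 0.0143), on means of 32.8 ± 5.88 (SD, n = 7) and 50.7 ± 5.41 CPM (SD, n = 4). Without mock library 3 the edgeR adjusted p was 0.0644. All 6 fibroblast markers were again tested and 4 were called lower (summed level 14.2 to 33.2 CPM against 40.9 to 79.3), while 4 of 11 epithelial markers were called higher and 1 lower (813 to 2380 CPM against 729 to 985).

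Hist1h2bc ranged from 5.31 to 14.2 CPM (median 8.10) and stood at 10.7, 11.1, 17.8 and 11.1 CPM in the mocks (log2 fold change -0.51, edgeR adjusted p = 0.229). Hist1h4d ranged from 4.09 to 6.94 CPM (median 5.78) against 5.21, 5.12, 1.88 and 2.08 CPM, with a log2 fold change of 0.67 (0.211). Hist1h1b ranged from 3.11 to 34.3 CPM (median 4.22) against 24.8, 26.7, 3.76 and 7.85 CPM. Both groups thus held libraries far apart, with 1x20Gy library 5 highest and mock libraries 1 and 2 close behind. The log2 fold change of Hist1h1b was -0.62 (SE 0.63, edgeR adjusted p = 0.603), and no fit without 1 library called it. With the share of reads outside genes as covariate it was -2.10 (0.0342), and with the replicate block -1.05 (0.0293). That share was 20.1 to 32.0% in the irradiated and 17.4 to 23.1% in the mock libraries.

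**Figure D3:**
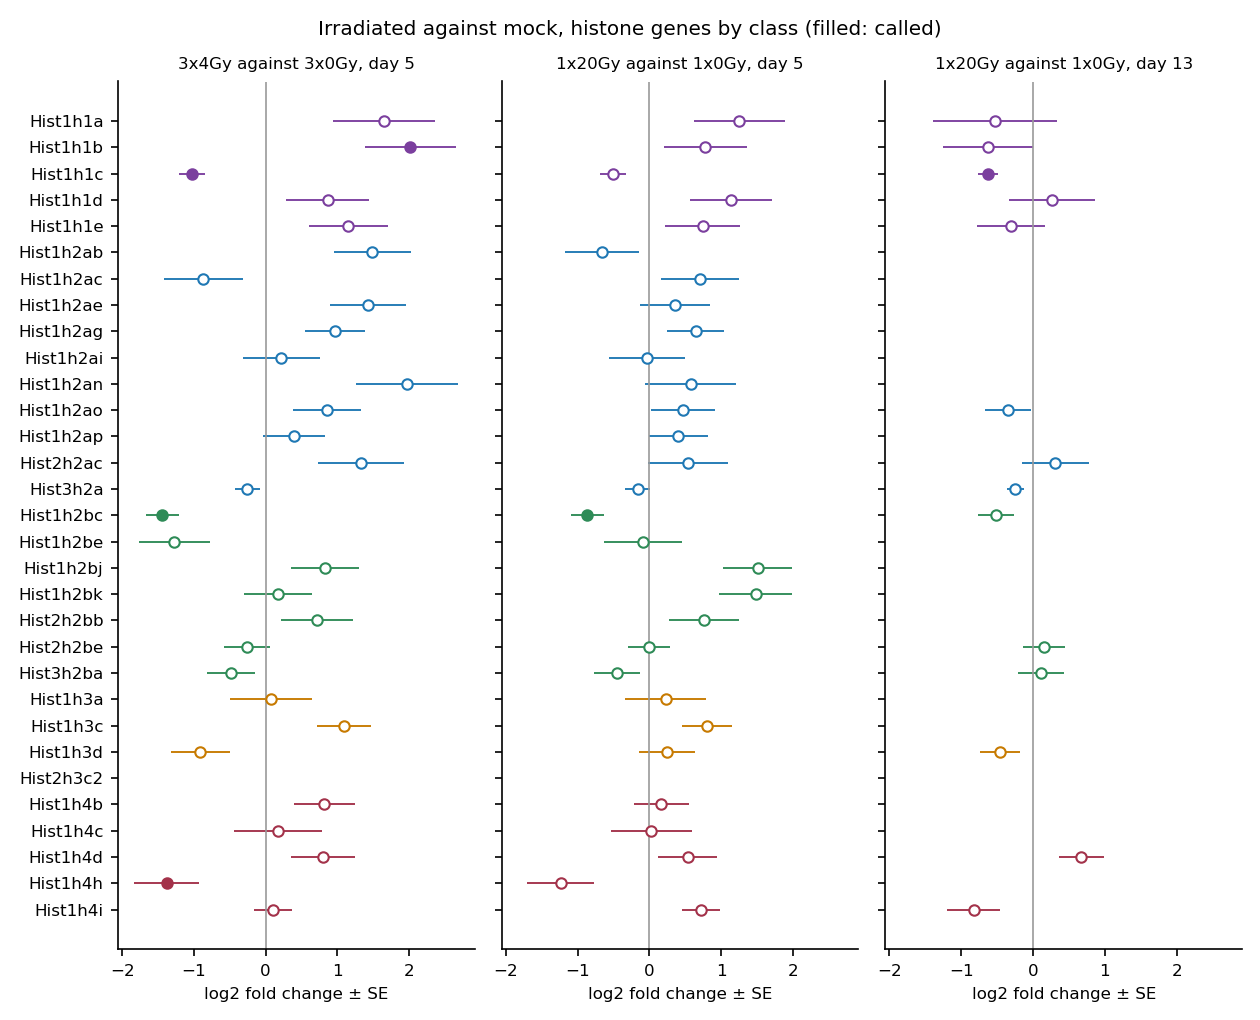
Log2 fold change ± SE of each kept histone gene, irradiated against its own mock, in the 3 comparisons (x axis; filled circles passed the edgeR test at an adjusted p below 0.05; genes without a point had too few counts). On day 5 most points lie right of 0 in both panels, with Hist1h1c, Hist1h2bc and Hist1h4h to the left.

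The responses to the 2 regimens were compared through the difference of their log2 fold changes, since each has its own mock. No member passed (0 of 12021 genes did, 0%), 1 member had an unadjusted p below 0.05, and 337 and 377 of all genes did in the higher and lower direction. DESeq2 and limma voom also called no member. The difference, 3x4Gy minus 1x20Gy, was 1.23 (SE 0.84) for Hist1h1b, -0.52 (SE 0.25) for Hist1h1c and -0.58 (SE 0.32) for Hist1h2bc, with edgeR adjusted p of 0.822, 0.804 and 0.811. The member with the low unadjusted p was Hist1h2ab at 2.14 (SE 0.74, edgeR adjusted p = 0.757), which had a log2 fold change of 1.48 after 3x4Gy. Between 3x0Gy and 1x0Gy no member and no other gene passed edgeR (0%), and DESeq2 called no member. At an unadjusted p below 0.05, 4 members were higher in 3x0Gy (Hist1h1c by 0.41, Hist1h2bc by 0.56, Hist1h2be by 1.36 and Hist1h2bk by 1.39 on the log2 scale) and none lower, against 418 and 249 of all genes. Hist1h2be and Hist1h2bk were higher without overlap, as were 2.04% of all genes, and no member was lower without overlap, as 1.76% were. These levels in the mocks enter the fold changes above.

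The 1x20Gy response at day 13 was set against that at day 5 in a fit of all 31 libraries, which tested 26 members. None passed edgeR (0.207% of all genes were higher and 0.216% lower), and 1 was higher and 5 lower at an unadjusted p below 0.05, against 870 and 629 of 12061 genes. DESeq2 called Hist1h2bj, for which edgeR gave a difference of -2.57 (adjusted p = 0.0832). All 5 H1 genes had a difference below 0, with a median of -1.03 against 0.01 over all genes, and the difference for Hist1h1b was -1.39 (SE 0.90, adjusted p = 0.577).

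Since Hist1h1b and Hist1h1c moved apart, the makeup of the H1 counts was described by the share of Hist1h1c among the 5 H1 genes. This share was chosen after the levels were seen and carries no test. It was 30.7, 63.4, 68.8, 50, 68.8 and 31.3% in the 3x4Gy libraries and 77.4, 97.4, 76.4 and 78.5% in the 3x0Gy libraries. The groups did not overlap, and libraries 1 and 6 of 3x4Gy were lowest. After 1x20Gy it was 32.7 to 60.8% (median 55.0%) against 57.01, 74.5, 87.5 and 74.0%, so that mock library 1 lay among the irradiated ones. On day 13 it was 18.5 to 58.2% (median 47.3%) against 28.1 to 74.2%, with mock library 3 alone above the irradiated range.

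**Figure D4:**
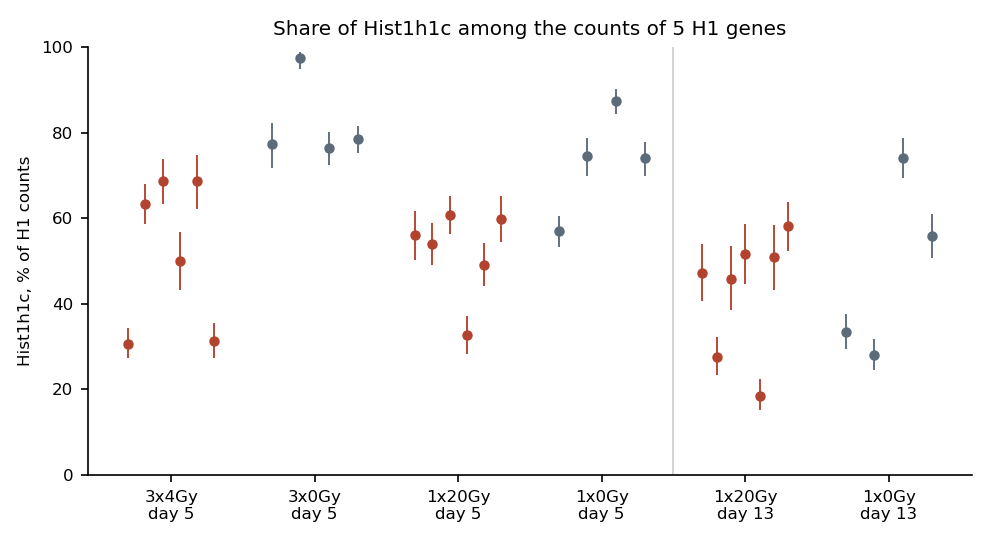
Hist1h1c as a percent of the counts of the 5 H1 genes (y axis) in each library, by group (red, irradiated; grey, mock), with exact Clopper-Pearson 95% intervals that cover counting error only. The 3x0Gy libraries lie at 76.4 to 97.4% and the 3x4Gy libraries at 30.7 to 68.8%, while on day 13 both groups reach below 30.7%.

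The members were also divided by the poly(A) signal at the transcript end, a division made after the fold changes were seen and given without a test. Hist1h1a, Hist1h1b, Hist1h2ai, Hist1h2an and Hist2h2bb were left out, since their models end too soon to show a signal. After 3x4Gy, 6 of the 8 genes with a signal had a log2 fold change below 0 (median -0.37), among them Hist1h1c and Hist1h4h, and Hist1h2ae stood out at 1.43. Of the 17 tested genes whose ends held no signal, 14 were above 0 (median 0.82), and Hist1h2bc was below. Models without a signal did not all end near the stem-loop. Those of Hist1h1e and Hist1h4d ran 1153 and 770 bases past it, so the division does not part messages with and without a poly(A) tail. All 5 genes left out were above 0 (median 1.65). After 1x20Gy on day 5 the medians were -0.12 (6 of 8 below 0) and 0.53 (15 of 17 above 0). On day 13 the medians were -0.24 (3 of 5 below 0) and -0.31 (4 of 7 below 0), in the opposite order. The 2 day 5 comparisons do not share mock libraries. The summed level of the 8 genes with a signal was 104 to 190 CPM after 3x4Gy and 141 to 229 CPM in its mocks. Much of this sum was the called Hist1h1c, with a mean of 39.5 of 128.7 CPM after 3x4Gy and 80.7 of 178.6 CPM in the mocks. Hist3h2a made up 63.2 and 75.9 CPM. After 1x20Gy on day 5 it was 114 to 139 CPM, against 124 to 179 CPM in its mocks. On day 13 the sum with a signal was 84.1 to 103 CPM after 1x20Gy and 107 to 131 CPM in its mocks, without overlap. Most of the day 13 sum came from the called Hist1h1c and from Hist3h2a. Their means were 32.8 and 45.6 of 92.7 CPM after 1x20Gy and 50.7 and 54.1 of 121.9 CPM in the mocks. Among RNAs known to carry no poly(A) tail, 4 could be tested, and none passed in any of the 3 comparisons. Their log2 fold changes ran from -0.72 (Rny1) to 1.10 (Rpph1) after 3x4Gy, from 0.03 (Rny3) to 1.45 (Rpph1) after 1x20Gy on day 5, and from -0.12 (Rny1) to 0.84 (Rpph1) on day 13.

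Within groups, the H1 genes other than Hist1h1c varied together. After group means of log2 CPM were removed, Pearson's r between Hist1h1b and Hist1h1e was 0.94 over the 20 day 5 libraries and 0.98 over the 11 day 13 libraries. Between these 4 H1 genes (Hist1h1a, Hist1h1b, Hist1h1d, Hist1h1e) r was 0.44 to 0.94 on day 5 (median 0.70) and 0.81 to 0.98 on day 13 (median 0.93). Over all pairs of tested members (30 on day 5 and 14 on day 13) the medians were 0.11 and 0.01. Over pairs of the 8 members with a poly(A) signal, tested or not, they were 0.05 and 0.06. Over the 253 pairs of members in which no signal was found, tested or not, they were 0.21 and 0.02. Of those members, 5 had models too short to show a signal. The pattern was not confined to H1. On day 5 r with Hist1h1b was 0.90 for Hist1h2an, 0.82 for Hist2h2ac and 0.73 for Hist1h4d. It was -0.56 for Hist2h2be and -0.41 for Hist3h2a. Pairs within a class could also run against each other, as Hist1h4b and Hist1h4h did on day 5 (r = -0.72). Hist1h2bc went the other way from the 4 H1 genes, with r from -0.51 to -0.20 on day 5 and from -0.76 to -0.66 on day 13. Both genes of a pair come from the same library and share its depth and scaling, so these values are descriptions without a p.

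Genes outside the family were set against Hist1h1b in the same way, and those named here were chosen after their values were seen. Casp8ap2, which encodes the end-processing factor FLASH, had r of 0.84 on day 5 and 0.96 on day 13 (Spearman's rho 0.77 and 0.93). Without the 2 libraries farthest from the median of Hist1h1b, r was 0.72 and 0.92. Mki67, the proliferation marker Ki-67, had r of 0.71 and 0.91 (0.68 and 0.81 without those libraries). The mean of the 20 mitosis genes described below, Mki67 among them, had r of 0.38 and 0.89 (0.35 and 0.76 without those libraries). For the mean of the 38 replication and nucleotide genes r was 0.14 and 0.31 (0.16 and 0.17). Cdk1, the kinase that drives entry to mitosis, went in the opposite direction on day 5, with r of -0.77 (-0.74 without those libraries), and had r of -0.09 on day 13. H2afz, the variant histone H2A.Z, had r of -0.74 on day 5 and -0.16 on day 13. Pcna, the sliding clamp of DNA polymerase, had r of 0.07 and -0.77. Slbp had r of -0.35 and 0.08 (-0.37 and -0.28 without those libraries) and Npat 0.54 and 0.77 (0.49 and 0.43 without them). The libraries left out were 3x4Gy library 1 and 3x0Gy library 2 on day 5 and 1x20Gy libraries 2 and 5 on day 13. The share of reads outside genes was lowest in 3x0Gy library 2 (5.65%), where Hist1h1b was 0 CPM. It was highest in day 13 1x20Gy library 5 (32.0%), where Hist1h1b reached 34.3 CPM, the most of that day. In 3x4Gy library 1, highest in Hist1h1b on day 5, it was 24.1%, within the 21.1 to 28.1% of its group. The part of this share in the correlations was not tested.

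**Figure D5:**
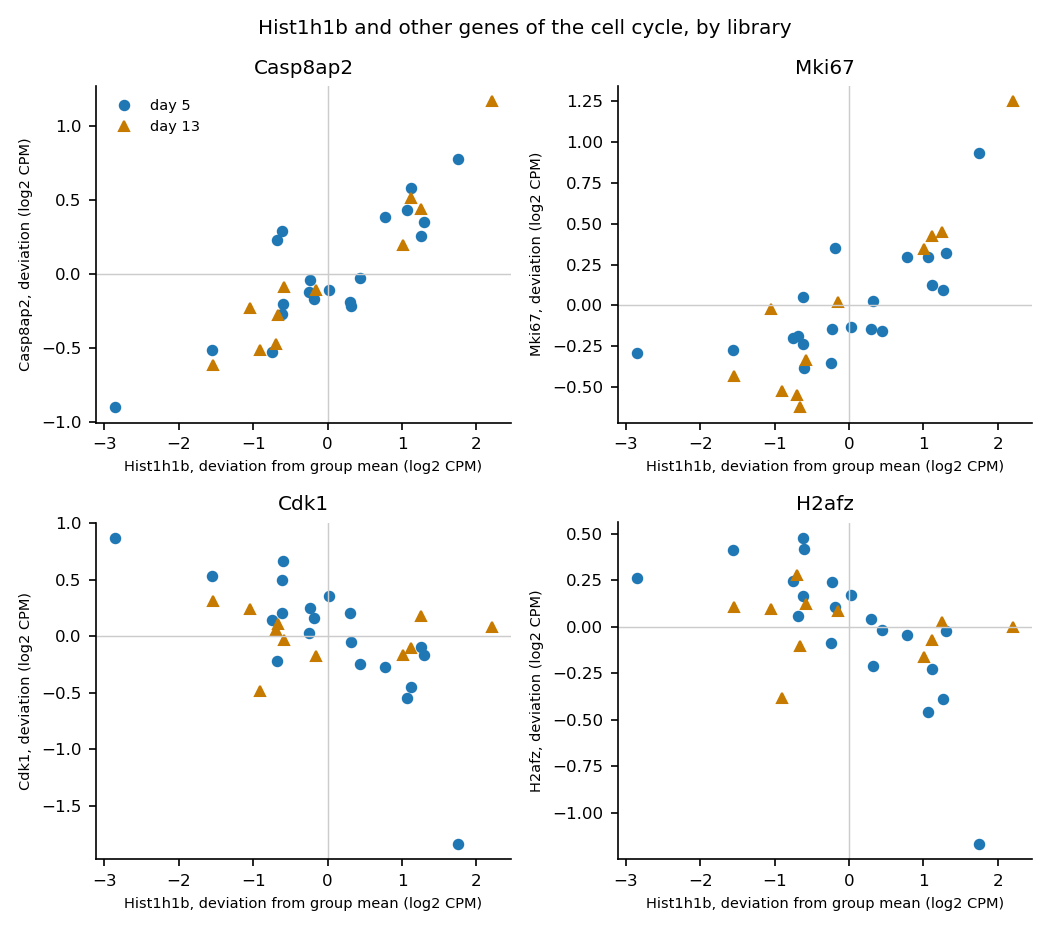
Deviation of each library from its group mean in log2 CPM, Hist1h1b on the x axis and Casp8ap2, Mki67, Cdk1 or H2afz on the y axis (circles, 20 day 5 libraries; triangles, 11 day 13 libraries). Casp8ap2 and Mki67 climb with Hist1h1b on both days (r from 0.71 to 0.96), while Cdk1 and H2afz run against it on day 5.

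Of 21 genes for transcription and 3' processing of histone messages, 2 rose and none fell after 3x4Gy, beside 5.2% and 7.09% of all genes. Casp8ap2 went from 33.2 ± 13.0 CPM in the mocks to 66.9 ± 23.6 CPM (log2 fold change 0.99, edgeR adjusted p = 0.0178), and Cpsf2, a subunit of the cleavage complex, had a log2 fold change of 0.39 (0.0478). After 1x20Gy on day 5, Lsm11, a protein of the U7 particle that cuts histone messages, rose (0.75, edgeR adjusted p = 0.0122). The cap-binding gene Ncbp1 also rose (0.51, 0.0344), beside 3.67% of all genes. On day 13 none of 20 passed. Slbp had log2 fold changes of 0.10 (0.732), 0.52 (0.0564) and 0.18 (0.39) in the 3 comparisons, and Npat 0.13 (0.624), -0.03 (0.946) and -0.04 (0.937). Of 19 histone chaperone genes, Daxx rose (0.54, edgeR adjusted p = 0.0437) and Ipo4 fell (-0.49, 0.0477) after 1x20Gy on day 5. Of all genes, 3.67% rose and 4.88% fell there. No chaperone gene passed in the other comparisons.

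Variant histones are encoded outside these clusters and replace the standard forms in part of the chromatin, and 10 of their genes were tested. After 3x4Gy 2 fell, beside 7.09% of all genes, and both were of the linker kind. They were H1fx, by 1.85 (edgeR adjusted p = 0.0107), and H1f0, by 0.62 (0.0396) on the log2 scale. None passed after 1x20Gy on either day. H2afz had log2 fold changes of 0.15, 0.55 and -0.20, and H2afx, whose phosphorylated product marks DNA breaks, 0.25, 0.43 and 0.36 in the 3 comparisons.

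Genes for DNA replication and mitosis were read from the same fits. Of 38 replication and nucleotide genes, 1 rose after 3x4Gy (Cdc6, which loads the replicative helicase, by 0.78, edgeR adjusted p = 0.0461), beside 5.2% of all genes. After 1x20Gy on day 5, 8 rose beside 3.67% of all genes, among them Cdc6 (1.15, 0.00553), the checkpoint gene Clspn (0.97, 0.00461) and Tyms, which makes thymidylate (0.83, 0.00646). On day 13 none passed. Pcna had log2 fold changes of 0.07, -0.15 and 0.22. Of 20 mitosis genes, 5 rose after 3x4Gy (5.2% of all genes did), including Tpx2 (0.54, 0.00516), Mki67 (0.99, 0.00576) and Cenpe (0.71, 0.0169). After 1x20Gy on day 5, 7 rose, including Ube2c (1.13, 0.000799), Plk1 (1.04, 0.00155) and Birc5 (0.88, 0.00263). On day 13 Cdk1 fell by 0.64 on the log2 scale (0.0139) and none rose, beside 3.83% and 4.22% of all genes.

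Among 6 inhibitors of cyclin-dependent kinases, Cdkn1a, the p53 target p21, rose from 310 to 839 CPM after 3x4Gy (log2 fold change 1.44, edgeR adjusted p = 4.05e-05) and had a log2 fold change of 1.11 after 1x20Gy on day 5 (0.000802). Cdkn2a fell by 1.58 (0.00431) and 1.43 (0.0113) on the log2 scale in the same comparisons, and neither passed on day 13. Of all genes, 5.2% and 3.67% were called higher and 7.09% and 4.88% lower in the day 5 comparisons, in that order.

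Markers of leukocyte types were called in part, beside 5.2%, 3.67% and 4.22% of all genes called higher in the 3 comparisons. Called lower were 7.09%, 4.88% and 3.83% of all genes. Of 9 T cell markers, 1, 2 and 4 were called higher in the 3 comparisons in the order above, and of the neutrophil markers 0 of 6, 2 of 6 and 3 of 5. Of 8 macrophage markers, 3 were called lower on day 13 and none on day 5, and of 2 B cell markers 1 was called lower on day 13. Of the 8 pan-leukocyte markers, Ptprc and Cd52 were called higher after 3x4Gy (Ptprc, which encodes CD45, from 623 to 1151 CPM, edgeR adjusted p = 0.0262). The part of these markers in the histone results was not tested.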

How the data were processed

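Raw counts per gene were deposited for each of 31 libraries; per the submitters' processing notes the tools were bcl2fastq 2.20.0.422, cutadapt 1.5, HISAT2 2.0.4 and HTSeq 0.9.1, with builds GRCm38 and mm10. Annotation, strand setting and RNA selection are not given in the sources used here. Lines for unassigned reads stayed out of library sizes. The members and gene lists were chosen with earlier results of these data known. Here, the whole table was fitted with edgeR 4.0.16 in R 4.3.3 (TMM, filterByExpr with a minimum count of 10 and minimum total of 15, quasi-likelihood test, Benjamini-Hochberg adjustment over all genes tested, called at an adjusted p below 0.05), with 1 fit for the 20 day 5 libraries, 1 for the 11 day 13 libraries and 1 for all 31. The SE is the log2 fold change divided by the square root of F. DESeq2 1.42.0, limma 3.58.1, other scalings and filters, covariates, a replicate block and leaving out each library were alternatives. The fit was tested on simulated data. Named were members called in a comparison of irradiated with mock and the member of each class with the highest mean CPM; listed genes called, up to 3 of a list in each comparison, and Slbp, Npat, Pcna, Mki67, H2afz and H2afx; others named were chosen after their values were seen. Stem-loops were read from GENCODE M21 transcripts.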

Additional observations from a re-analysis of the deposited data

Results flagged for a closer look

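In 90 sets of values of 1 group, 6 had a library at the edge whose gap to its neighbour was large against the range of the group; chance gives this in about 1 in 20 groups. Of the 3x4Gy libraries, library 1 was highest in the summed H2a genes (224 CPM, next 137 CPM) and in the summed genes with a poly(A) signal (189.8 CPM, next 126 CPM). On day 13, 1x20Gy library 5 was highest in the summed H1 genes (189 CPM, next 109 CPM), in the sum of all kept members (293 CPM, next 203 CPM) and in the summed genes in which no poly(A) signal was found, 5 of them with models too short to show one (209 CPM, next 116 CPM). Hist1h2bc was highest in mock library 3 of day 13 (17.8 CPM, next 11.1 CPM). No difference between responses was called for a member.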

How the results depend on the processing

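Members called after 3x4Gy (4 in the fit reported) were 8 with DESeq2 (5 higher, 3 lower, including Hist1h2ab, Hist1h2ae, Hist1h2an and Hist1h3c). They were 2 with the replicate block, 1 with the pooled epithelial and fibroblast covariate and 2 with the share of reads outside genes as covariate. Hist1h2bc kept its call in all 11 alternatives and all 10 fits without 1 library; Hist1h1b lost it in 6 of 11 and 6 of 10, and Hist1h4h in 4 of 11 and 8 of 10. Members called after 1x20Gy on day 5 (1) were 3 with DESeq2, 2 with library size scaling and 2 with limma voom. With the pooled epithelial and fibroblast covariate there were 0. The replicate block and the share of reads outside genes each called 1, but it was Hist1h2bj, higher, and Hist1h2bc lost its call (adjusted p 0.0512 with the block). On day 13 (1) they were 2 with library size scaling, 2 with the replicate block, which added Hist1h1b as lower, and 3 with the share of reads outside genes as covariate. For the day 13 response against day 5 (0) DESeq2 called 1. Leaving out 1 library gave 2 to 7, 0 to 3 and 0 to 1 calls in the 3 comparisons, and 0 to 0 in the differences and between mocks. The 0 calls of day 5 came without 1x0Gy library 3 or 4, and that of day 13 without mock library 3. The 7 calls after 3x4Gy came without its library 3. With the share of reads outside genes as covariate, the log2 fold change of Hist3h2a after 3x4Gy was 0.059, that after 1x20Gy on day 5 was 0.077, and that of Hist1h3d was -0.15, each opposite in sign to the fit reported. The causes were not tested. Library size scaling moved the median of all genes to -0.10, -0.11 and -0.23. Replicate numbers are shared between groups, but correlations of same-numbered deviations (-0.03 to 0.40, -0.26 to 0.21, -0.03 to 0.33 and, between mocks, -0.43 to 0.24) did not pair them, and 2, 0, 0 and 1 of 4 mocks correlated best with their own number. A fit of only the 2 groups compared was not run on day 13, where it equals the fit reported, or for the differences. Depth limits Hist1h4h and other members of a few counts a library; 17 of 31 members could not be tested on day 13.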
